A study of Drosophila melanogaster with 6 samples.

Results

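The Rab genes of this fly data set are those spotted genes whose only current symbol starts with Rab followed by a digit or an X. The rule found 5 genes on the array, and all 5 had values on all 6 arrays, among 7201 features in all (2216 with a gene name and 4985 clones with none here). Rab32, Rab35, Rab40 and Rab3 encode Rab GTPases. The remaining gene, Rab3-GAP, matched the rule by its spelling and encodes no GTPase but a subunit of a complex that acts on Rab3. It is therefore described as a regulator beside the other 4. The current gene table holds 33 symbols of Rab GTPases, so 4 of 33 were measured under a gene name, and others may lie among the unnamed clones. 

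RNA of the established Drosophila melanogaster lines Kc167 and SL2, both untreated and kept at 22 °C, was labelled with Cy3 and Cy5 and hybridised together on 6 spotted cDNA arrays. The medium of Kc167 was a Schneider formula with 5% serum, that of SL2 was CCM3, and gentamicin was in each, so line and medium cannot be told apart. Cy5 marked Kc167 on 3 arrays and SL2 on the 3 flipped ones. Arrays of 1 number, 1 from each orientation, were averaged to n = 3 replicates; nothing in the labels says that separate cultures were used, so the spread behind the p-values may be technical.

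Rab GTPases are molecular switches of membrane traffic. In the GTP-bound form they sit on a membrane and recruit effectors such as tethers and motors, and in the GDP-bound form they are carried through the cytosol. Exchange factors load GTP, GTPase-activating proteins end the active state, and different Rabs mark different compartments. Both lines derive from embryos and have properties of hemocytes, the phagocytic blood cells of the fly, in which endocytosis, recycling and phagosome traffic depend on Rabs.

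All values are log2 ratios of SL2 over Kc167 in RNA, so a positive value lies on the SL2 side and a negative one on the Kc167 side. The direction is likely rather than stated by the labels, and the base of the logarithm was taken as 2; a reversed definition would turn every sign together, and natural logarithms would make every fold larger. A ratio says nothing about the level of a transcript in either line, and signal over background is not known here. Fewer cells of a type and less RNA per cell cannot be told apart in such samples. The medians of the arrays lay between -0.024 and 0.002, and 15104 to 16844 of 16896 spots held a value. The flipped array of replicate 1 stood apart: across features it correlated with the arrays of the other orientation at r = 0.64 to 0.73, against 0.78 to 0.83 for the other flipped arrays. The results of the Rab genes are therefore also given without it. Of 4 hemocyte genes measured under a name, NimC1 and Pxn lay toward SL2 while Ppn and Pvr lay toward Kc167, so these markers gave no common direction, and their part in the Rab ratios was not tested.

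Rab32 and Rab35 were higher in SL2, each by a small amount, and no Rab gene was higher in Kc167. Rab32 had a log2 ratio of 0.29 ± 0.07 (SE, n = 3) and Rab35 one of 0.26 ± 0.07, which are 1.22-fold and 1.19-fold. Rab3-GAP leaned to the same side with 0.15 ± 0.07 but did not pass, and Rab40 (0.07 ± 0.07) and Rab3 (-0.01 ± 0.06) did not pass either. By limma at an adjusted p (Benjamini-Hochberg) under 0.05, 2 of 5 genes passed on the SL2 side; 0 did on the Kc167 side, where none had an unadjusted p under 0.05 either. Among all features 60.2% passed (28.4% toward SL2, 31.8% toward Kc167), against 40% of the Rab genes. The median ratio of the 5 genes was 0.15, against -0.02 over all features and 0.02 over the named genes.

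**Figure D1:**
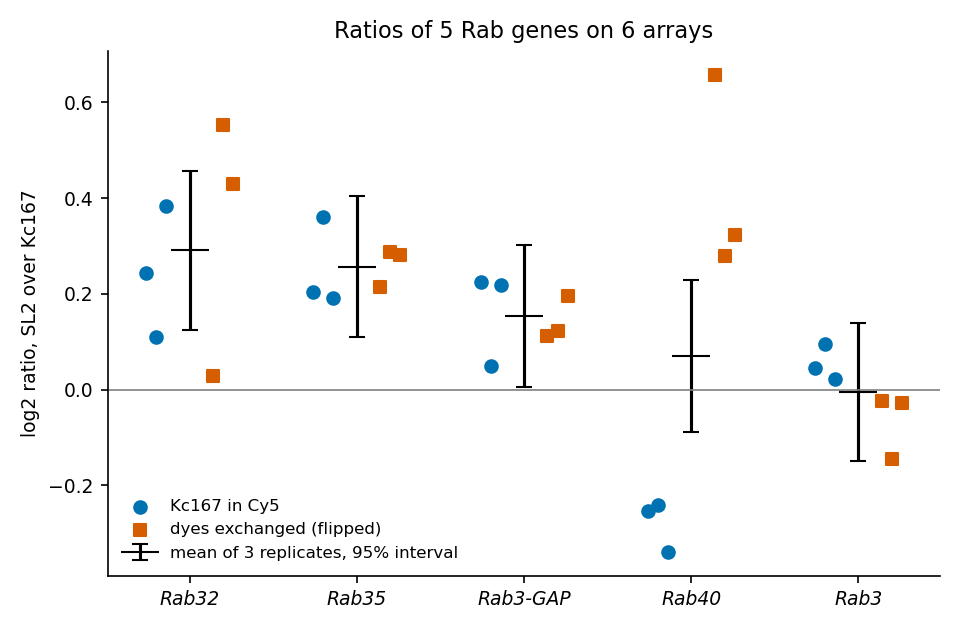
Log2 ratios of SL2 over Kc167 for the 5 Rab genes on each array, as circles for Kc167 in Cy5 and squares for the flipped arrays; bars show the mean of 3 replicates with its 95% interval. Rab32, Rab35 and Rab3-GAP are above 0 on all 6 arrays, whereas Rab40 is below 0 in one orientation and above 0 in the other.

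Rab35 works at the plasma membrane in recycling from endosomes and in the control of actin, and it has a described role in phagocytosis by fly hemocytes. Its ratio was 0.20, 0.36 and 0.19 with Kc167 in Cy5 and 0.21, 0.29 and 0.28 on the flipped arrays. All 6 arrays lay on the SL2 side, and the values of the 2 orientations overlapped. Replicates were 0.21, 0.32 and 0.24, and their SD of 0.06 was below the 0.11 that was the median over all features. The 95% interval of the fold ran from 1.08 to 1.32 (limma adjusted p = 0.0071). Rab35 was positive on all 6 arrays, as were 23.1% of all features.

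Rab35 was spotted as 2 clones with different accessions in the platform annotation, which makes it the Rab GTPase gene with the most probes here. The clone at spots 9827 and 9828 had 0.29 ± 0.07 (limma adjusted p over clones = 0.0036), with values between 0.16 and 0.37 on the 6 arrays. The clone at spots 14965 and 14966 had 0.23 ± 0.07 (adjusted p over clones = 0.018), with values between 0.02 and 0.40. Each clone thus passed alone, and both lay on the SL2 side. Of all 7581 clones tested 59.6% were called, counting both directions, and of all features 28.4% were called toward SL2. How often 2 clones of a gene passed on the same side was not counted. Of the 24 single spot values of Rab35, 22 were positive. Spots and clones share the arrays and are not replicates of the lines. In each dye orientation alone Rab35 also passed, with 0.25 where Cy5 marked Kc167 (limma adjusted p = 0.045) and 0.26 on the flipped arrays (limma adjusted p = 0.033). The arrays with Kc167 in Cy5 alone called 51.6% of features and the flipped arrays alone 50.8%, and 33.2% were called in each in the same direction. Without the flipped array of replicate 1 the ratio was 0.26 (limma adjusted p = 0.016).

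Rab32 is the product of the gene once called lightoid, which is needed in the fly eye for the formation of pigment granules, organelles related to lysosomes. Its ratio was 0.24, 0.11 and 0.38 with Kc167 in Cy5 and 0.03, 0.55 and 0.43 on the flipped arrays. All 6 arrays were on the SL2 side, but they ranged from near 0 to above 0.5, and the lowest value came from the flipped array of replicate 1. On that array the 2 spots of its only clone disagreed in sign, at 0.28 and -0.22. The replicates were 0.14, 0.33 and 0.41 with an SD of 0.14, and 66.4% of features had a smaller SD.

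The 95% interval of the Rab32 fold ran from 1.09 to 1.37 (limma adjusted p = 0.0067). The call depended on a replicate: without replicate 3 the ratio was 0.23 and did not pass (limma adjusted p = 0.055), while without replicate 1 it was 0.37 (limma adjusted p = 0.0051). With Kc167 in Cy5 alone it was 0.25 (limma adjusted p = 0.059), and on the flipped arrays alone it was 0.34 (limma adjusted p = 0.040). Without the flipped array of replicate 1 the ratio was 0.33 (limma adjusted p = 0.0063).

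Rab3 is the Rab of synaptic vesicles, known in flies for its part in the arrangement of active zones at neuromuscular junctions. Its ratio was 0.04, 0.10 and 0.02 with Kc167 in Cy5 and -0.02, -0.14 and -0.03 on the flipped arrays. All 6 values lay near 0, positive in one orientation and negative in the other. The mean was -0.01 ± 0.06 (limma adjusted p = 0.95), and the 95% interval of the fold ran from 0.902 to 1.10. A difference within that interval would not have been detectable. Its 3 replicates, at 0.01, -0.02 and -0.002, were among the least variable of the table: only 2.17% of features had a smaller SD. The 2 spots of its clone differed by 0.06 on average, where the median over clones was 0.18. Without the flipped array of replicate 1 its ratio was 0.01 (limma adjusted p = 0.95).

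The orientation gap of Rab3 was small. The flipped arrays were lower by a difference of -0.12 ± 0.13 (limma adjusted p = 0.59), although the 3 values of each orientation did not overlap. Such a lack of overlap was seen for 36.1% of all features, and 9.46% passed the test of the orientation difference.

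Rab40 is a Rab with an added SOCS box, the motif by which its relatives in mammals join a Cullin ubiquitin ligase. Its mean ratio was 0.07 ± 0.07 and did not pass (limma adjusted p = 0.41), with an interval of the fold from 0.941 to 1.17. That mean combined opposite values. With Kc167 in Cy5 the ratio was -0.25, -0.24 and -0.34, and on the flipped arrays it was 0.66, 0.28 and 0.32. The orientations did not overlap, and in the direction used here the line that carried Cy5 had the higher value on each of the 6 arrays.

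**Figure D2:**
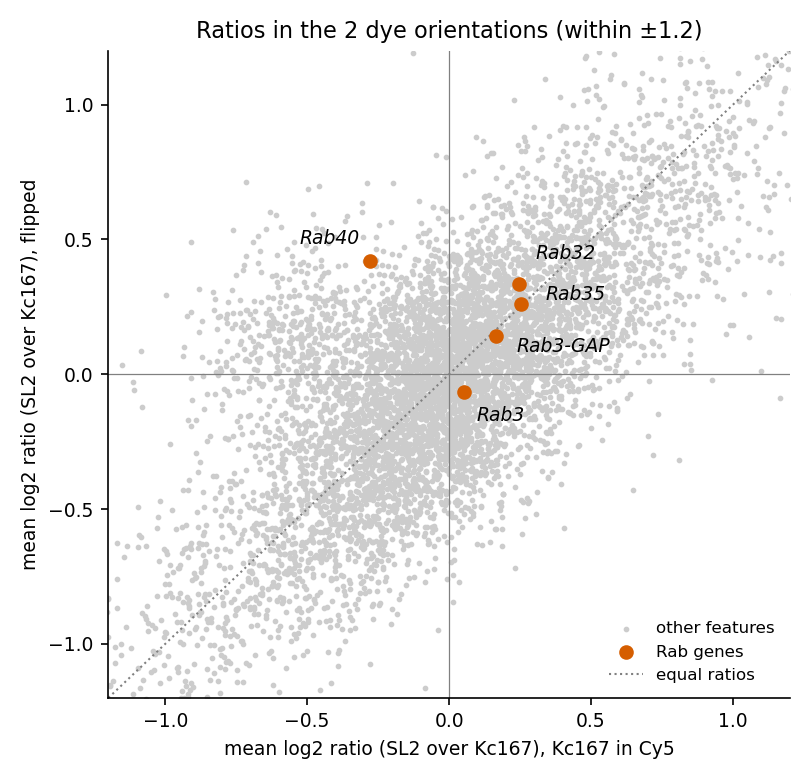
Mean log2 ratio of SL2 over Kc167 on the 3 arrays with Kc167 in Cy5 (horizontal) against that on the 3 flipped arrays (vertical), for all features in grey and the Rab genes in orange; the dotted line marks equal ratios. Rab32, Rab35, Rab3-GAP and Rab3 lie near the line, and Rab40 lies at -0.28 and 0.42.

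The ratio of Rab40 differed between the orientations by 0.70 ± 0.14 (SE, n = 3; flipped minus Kc167 in Cy5; limma adjusted p = 0.022), with gaps of 0.91, 0.52 and 0.66 in the 3 same-numbered pairs. The size of this gap exceeded that of 95.0% of features, whose median was 0.21. Taken alone, the arrays with Kc167 in Cy5 called Rab40 on the Kc167 side (-0.28 ± 0.09, limma adjusted p = 0.028) and the flipped arrays called it on the SL2 side (0.42 ± 0.10, limma adjusted p = 0.010). Calls in opposite directions in this way were made for 101 features, or 1.4%.

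All 12 spot values of Rab40 followed the same division, 6 negative and 6 positive, and its 2 spots differed by 0.11 on average. Without the flipped array of replicate 1, which held the highest value, the mean ratio of the lines was -0.08 (limma adjusted p = 0.42); replicate 1 then held 1 orientation only. The orientation difference was 0.59 without replicate 1 (limma adjusted p = 0.084) and 0.79 without replicate 2 (limma adjusted p = 0.099), and neither passed; without replicate 3 it was 0.72 and passed (limma adjusted p = 0.0088). Over all features, 1, 2 and 994 passed in these 3 settings. Per the labels the Cy5 scan had a laser power of 95 and a gain of 60 with Kc167 in Cy5, and 100 and 66 on the flipped arrays, so dye and scan setting cannot be told apart. For Rab32 (0.09 ± 0.16), Rab35 (0.01 ± 0.13) and Rab3-GAP (-0.02 ± 0.13) the orientation difference did not pass, with limma adjusted p = 0.74, 0.97 and 0.93.

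Rab3-GAP encodes the fly counterpart of the regulatory subunit of the Rab3 GTPase-activating complex, known in flies for its role in the homeostatic control of transmitter release at synapses. Its ratio was 0.23, 0.05 and 0.22 with Kc167 in Cy5 and 0.11, 0.12 and 0.20 on the flipped arrays. All 6 arrays were on the SL2 side by small amounts, and the orientations overlapped. The mean was 0.15 ± 0.07, or 1.11-fold, with an interval of the fold from 1.004 to 1.23. The unadjusted p was 0.043, and the limma adjusted p of 0.068 did not pass. With the 6 arrays as separate values and a dye term it was 0.043, and with the replicate number as a block as well it was 0.041.

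The 3 clones of Rab3-GAP gave 0.11 ± 0.08 (spots 109 and 110), 0.12 ± 0.08 (spots 13113 and 13114) and 0.23 ± 0.09 (spots 16265 and 16266), and of these the last alone passed (limma adjusted p over clones = 0.041). The latter 2 clones carry the same accessions in the platform annotation. Single clones changed sign between arrays, with 3, 4 and 5 of 6 arrays positive. Averaged over its 6 spots, the gene had an SD between replicates of 0.06. Without the flipped array of replicate 1 its ratio was 0.17 (limma adjusted p = 0.067).

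**Figure D3:**
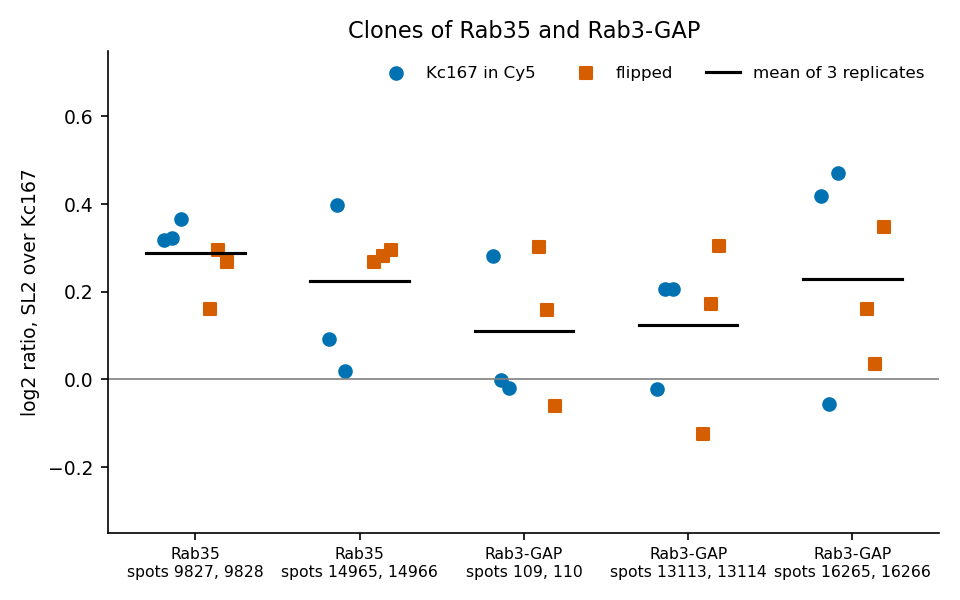
Log2 ratio of SL2 over Kc167 on each array for the clones of Rab35 and Rab3-GAP, named by their spots; circles are arrays with Kc167 in Cy5, squares are flipped arrays and lines are means of 3 replicates. The clones of Rab35 stay above 0 on every array, and each clone of Rab3-GAP has values on either side of 0.

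Ordered by ratio, Rab32 was followed by Rab35, Rab3-GAP, Rab40 and Rab3. The replicates of Rab32 overlapped those of its next neighbour Rab35, those of Rab3-GAP overlapped those of Rab40, and those of Rab40 overlapped those of Rab3. Rab35 and Rab3-GAP were separated by a hair, with the lowest replicate of Rab35 at 0.209 and the highest of Rab3-GAP at 0.208. The replicates of Rab32, Rab35 and Rab3-GAP all lay above those of Rab3. Differences between genes were not tested.

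**Figure D4:**
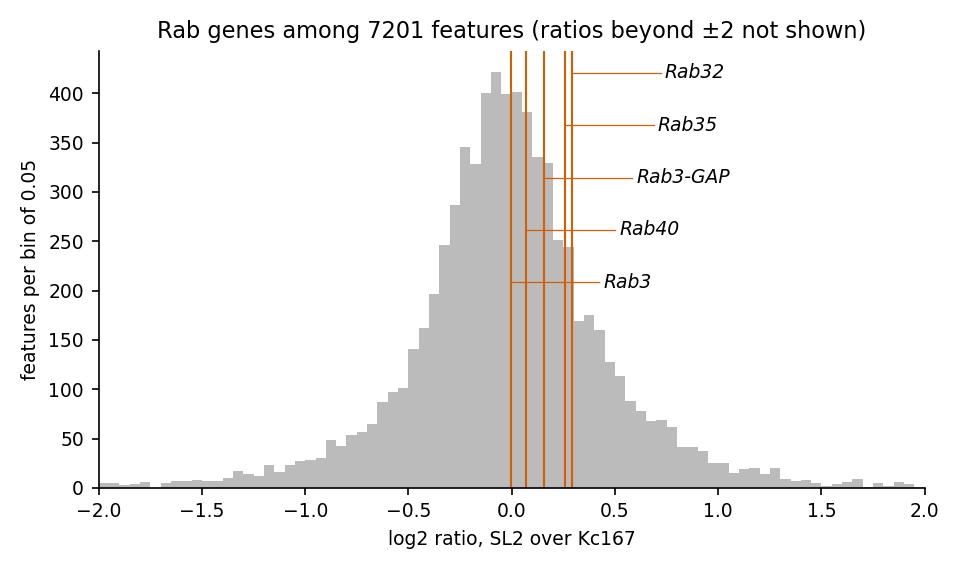
Histogram of the mean log2 ratio of SL2 over Kc167 for the 7201 features, with lines at the 5 Rab genes; the vertical axis counts features per bin of 0.05. The Rab genes lie in the centre of the distribution, between -0.01 and 0.29.

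In size the Rab ratios were ordinary for this table. The ratio of Rab32 was larger in size than that of 56.1% of features and that of Rab35 than 50.9%, while the shares were 33.4% for Rab3-GAP, 15.8% for Rab40 and 1.37% for Rab3. The median size over all features was 0.25, and it was 0.42 among those called.

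Rab35 and Rab40 lie on the X chromosome, Rab32 and Rab3 on arm 2R and Rab3-GAP on 2L. The 368 X-linked named genes had a median ratio of -0.05, with 96 called toward SL2 and 139 toward Kc167. Rab35 was thus on the less common side for its chromosome. That side was also the less common one over all features, with 28.4% called toward SL2 and 31.8% toward Kc167.

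The genes with the most similar values over the 6 arrays were found as the smallest root mean square difference among the named genes. For Rab35 these were CG7202 (0.062) and boly (0.064), and for Rab32 they were nudE (0.10) and Tnpo-SR (0.11). For Rab40 they were Duba (0.11) and Opa1 (0.11), which also had negative values where Kc167 carried Cy5 and positive ones on the 3 flipped arrays. For Rab3 they were GATAe (0.063) and CG12054 (0.068), and for Rab3-GAP they were Dmtn (0.045) and Sec24AB (0.048). These are descriptions over 6 arrays, and many genes with ratios near 0 resemble each other.

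The regulators that load and unload Rabs had ratios from -0.70 to 0.68, in either direction and with no common side. Of 41 listed regulators 11 were on the array under a name and 10 were tested: 3 passed on the SL2 side and 3 did not pass, while 4 were on the Kc167 side. That is 70% called, against 59.3% of the named genes, and their median ratio was -0.17. Rabex-5, an exchange factor for the early endosomal Rab5 that also acts as a ubiquitin ligase on Ras in flies, had -0.70 ± 0.07 (1.63-fold; limma adjusted p = 1.4e-05). It ranged from -1.12 to -0.50, so that all 6 arrays were on the Kc167 side.

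Evi5, which encodes a GTPase-activating protein for Rab11 in flies, had 0.68 ± 0.08 (1.61-fold; limma adjusted p = 3.4e-05), between 0.47 and 0.91 on the arrays. Its 2 clones had 0.49 and 0.88. RN-tre, whose relative in mammals acts on Rab5, had 0.58 ± 0.08 (limma adjusted p = 0.00018), with a difference between the orientations of -0.58 (limma adjusted p = 0.041). On the flipped arrays alone RN-tre had 0.29 and did not pass (limma adjusted p = 0.084).

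The gene ca, or claret, belongs to the same pigment granule pathway as Rab32 and encodes a protein that resembles exchange factors. It had 0.54 ± 0.07 (1.45-fold; limma adjusted p = 8.2e-05), between 0.18 and 0.76 on the 6 arrays.

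**Figure D5:**
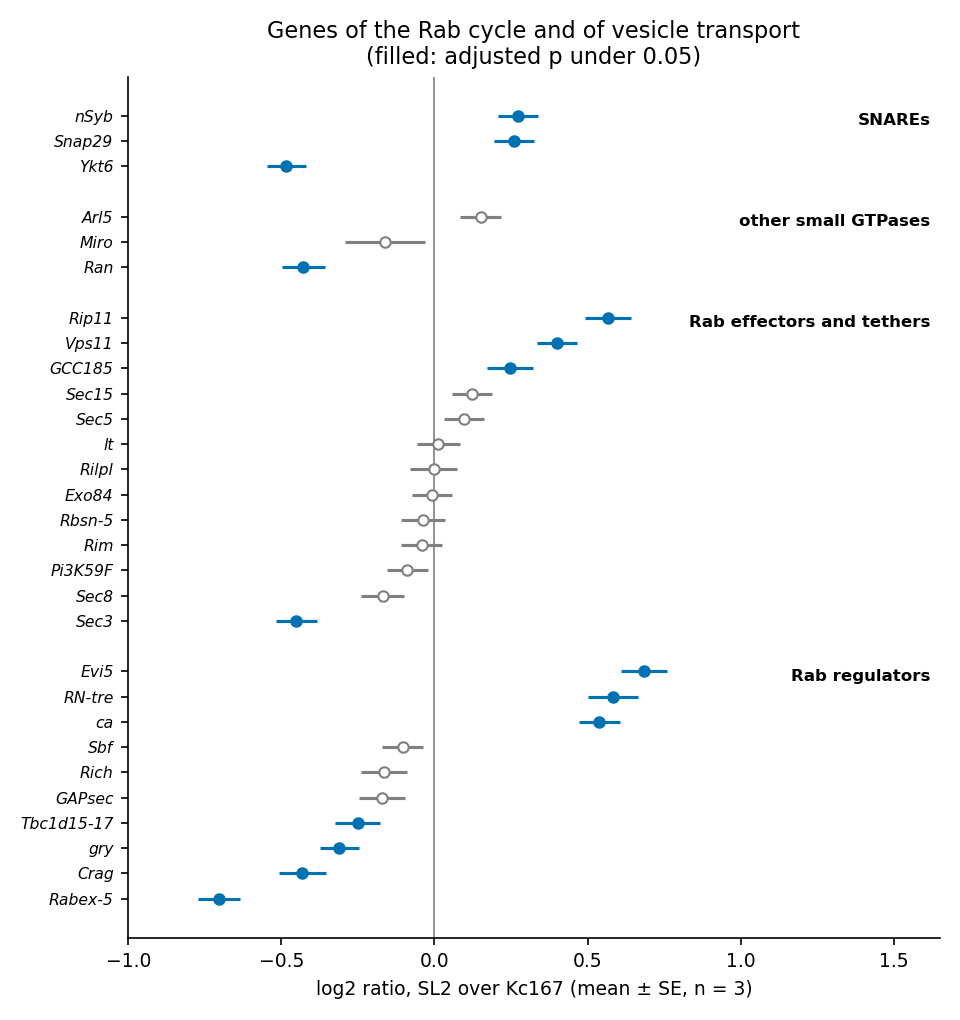
Mean log2 ratio of SL2 over Kc167 with its SE (n = 3) for measured genes of 4 lists around the Rab genes; filled points passed the limma test. The regulators reach -0.70 and 0.68, while most effectors and tethers lie near 0.

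Rab effectors and tethers had a median ratio size of 0.095, against 0.25 over all features. Of 38 listed genes 14 were on the array and 13 were tested: 3 passed on the SL2 side and 9 did not pass, while 1 was on the Kc167 side, which is 30.8% called against 59.3% of the named genes, and the median ratio was -0.003. Rip11, an effector of Rab11 in recycling endosomes, had 0.57 ± 0.07 (1.48-fold; limma adjusted p = 0.00011), and its 6 arrays ran from 0.14 to 0.98. Vps11, a core subunit of the endosomal tethers that work with Rab5 and Rab7, had 0.40 ± 0.07 (limma adjusted p = 0.00049), and with Kc167 in Cy5 alone it had 0.26 and did not pass (limma adjusted p = 0.062). GCC185, a golgin, had 0.25 ± 0.08 (limma adjusted p = 0.018) but did not pass in either orientation alone or without replicate 1 (0.17, limma adjusted p = 0.11). The first spot of GCC185 alone gave 0.42 (limma adjusted p = 0.0025) and its second 0.075 (limma adjusted p = 0.47). On the Kc167 side was Sec3, an exocyst subunit, with -0.45 ± 0.07 (limma adjusted p = 0.00025) and values from -0.54 to -0.32. Rim, which encodes a Rab3 effector of the active zone and was picked out after its value was seen, had -0.04 ± 0.07 and did not pass (limma adjusted p = 0.62). That mean combined opposite values. With Kc167 in Cy5 alone Rim had 0.17 (limma adjusted p = 0.24), and on the flipped arrays alone it had -0.25 (limma adjusted p = 0.046). Its orientation difference of -0.42 did not pass (limma adjusted p = 0.12).

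Of 5 small GTPases of other families on the array 4 were tested, and 2 passed, both toward Kc167. Among all features 60.2% passed and 31.8% did so toward Kc167. Ran, the GTPase of nuclear transport, had -0.43 ± 0.07 (limma adjusted p = 0.00053). Miro, which links mitochondria to motors, had -0.16 ± 0.13 and did not pass, with arrays from -0.76 to 0.72. Without replicate 3 it had -0.41 (limma adjusted p = 0.0013), but it passed in only 3 of 18 alternatives. With Kc167 in Cy5 alone it had 0.06 (limma adjusted p = 0.81). Its first spot alone gave -0.006 (limma adjusted p = 0.98) and its second -0.32 (limma adjusted p = 0.017). Arl5, an Arf-like GTPase, had 0.15 ± 0.07 and did not pass.

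SNARE proteins carry out the fusion that Rabs and tethers prepare. All 3 measured SNARE genes passed, where 59.3% of the named genes did. Ykt6 had -0.48 ± 0.06 (limma adjusted p = 0.00012) and was on the Kc167 side on all 6 arrays. On the SL2 side, Snap29 had 0.26 ± 0.07 (limma adjusted p = 0.0065), and without the flipped array of replicate 1 it had 0.18 and did not pass (limma adjusted p = 0.060). The synaptic vesicle gene nSyb had 0.27 ± 0.07 (limma adjusted p = 0.0055) and 0.23 without replicate 3 (limma adjusted p = 0.053). With Kc167 in Cy5 alone neither Snap29 (0.10, limma adjusted p = 0.35) nor nSyb (0.19, limma adjusted p = 0.11) passed.

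Over the 4 lists, 16 of 30 tested genes passed, or 53.3% against 59.3% of the named genes, with 8 on each side and a median ratio of -0.04. On base 2 none of the 16 differed by 2-fold or more, and 2 would if the logarithms were natural.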

How the data were processed

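The deposited log2 ratios per spot (base 2 is assumed) were computed by the authors after a normalisation whose method is not given in the sources used here. Scanning with a ScanArray 4000 and quantification with QuantArray 3 involved no background subtraction, per the labels. The 2 neighbouring spots of each clone were averaged, then the clones of a gene, over the 7581 clones with values on all 6 arrays. The platform annotation gave 5666 spots 1 symbol, 152 several and 11078 none; all 5666 were matched by Entrez identifier to the RefSeq table of Release 6, used for names and arms. Arrays of the same number were averaged over the dyes, and the mean of 3 was tested against 0 with limma 3.58.1 in R 4.3.3 (lmFit, eBayes, two-sided), with Benjamini-Hochberg adjustment over 7201 features. SE is limma's moderated error, and intervals are 95%. For 3 values, p = 0.25 is the smallest that exact sign flips allow. Differences within pairs tested the orientation. Precision is limited by the number of arrays. Only the test on 3 replicate means was run on simulated data, and the averaging on a few known values. The simulation held no dye effect and far fewer changed features than were called here, so it cannot vouch for these calls. Genes, lists and tests were chosen with earlier results of these data known. Named are all Rab genes, in each list the 4 (or fewer) called genes of largest ratio, all members of lists with up to 4 tested genes (save 1 small GTPase, which is counted but not reported here), and the 2 nearest genes of each Rab gene. Figures used matplotlib 3.10.9. No sequence was used.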

Additional observations from a re-analysis of the deposited data

Results flagged for a closer look

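Rab40 stood out because its ratio differed between the dye orientations, by 0.70 on the log2 scale (flipped minus Kc167 in Cy5; 0.70 ± 0.14, limma adjusted p = 0.022), with the higher ratio on the flipped arrays in 3 of 3 pairs. The flipped array of replicate 1 held the highest ratio, 0.66 against 0.28 and 0.32 on the other flipped arrays. Each orientation holds 3 arrays, too few to test whether a single array is far from the others. The orientation difference of Rab40 passed in 2 of 4 alternatives, and 9.46% of all features passed that test in the main setting.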

How the results depend on the processing

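Over the alternatives on the log2 scale, Rab35 stayed between 0.22 and 0.29 and passed in 19 of 20, Rab32 between 0.23 and 0.37 (15 of 18), Rab3-GAP between 0.11 and 0.23 (3 of 21) and Rab3 between -0.06 and 0.11 (0 of 18). In several of these alternatives the Rab ratios could not move. They were the fits with a dye term, a looser rule for missing values, other treatments of the variance and a limit on extreme ratios. With Kc167 in Cy5 alone, Rab40 turned to -0.28 and Rab32 had 0.25 without passing, which left 1 Rab gene called on each side (1 toward SL2, 1 toward Kc167), with 4 regulators, 2 effectors and 1 SNARE called. On the flipped arrays alone Rab40 passed with 0.42. Without pooling of variance between features, an ordinary t test on the 3 replicates took the place of limma's. Rab32 (0.29) and Rab35 (0.26, t test with Benjamini-Hochberg adjusted p = 0.056) then did not pass, so 0 Rab genes were called. Rab35 alone had an unadjusted p under 0.05. In this setting 938 features were called toward SL2 and 988 toward Kc167, with 3 regulators, 2 effectors, 1 other small GTPase and 1 SNARE. With the second spot of each clone, 4 other small GTPases passed. The clone of Rab3-GAP at spots 16265 and 16266 passed with 0.23. Leaving out each replicate gave 1 to 2 Rab genes on the SL2 side, 0.23 to 0.37 for Rab32, 0.59 to 0.79 for the orientation gap of Rab40, and 1 to 994 features with an orientation difference. The causes were not tested. Deviations of same-numbered arrays correlated at r = -0.07, 0.11 and -0.10 in the 3 pairs. Arrays of different number gave r from -0.18 to 0.20, so these values cannot show whether same-numbered arrays shared RNA or cultures. With the 6 arrays, a dye term and the replicate block, Rab3-GAP passed at 0.15, as it did without the block (0.15). Without the block the orientation gap of Rab40 was 0.70 (limma adjusted p = 0.014). Removal of the flipped array of replicate 1 and subtraction of the local median of 24 neighbouring clones were chosen after seeing the data. Under each, 2 Rab genes were called. Reading the values as natural logarithms was also chosen then. It multiplies every value by the same constant, so it could not change the calls.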
